A study of Mus musculus with 17 samples.

Results

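Described here are 38 genes of the oligodendrocyte lineage, from precursor to myelin sheath, out of 15355 genes measured. They were taken by symbol from a list of lineage and myelin genes, and all 38 of them were in the table. The rule names symbols and sets no cutoff on a measured level, but the list was drawn up with earlier results of these data known. By their known roles, 6 were grouped under the precursor stage (Pdgfra, Cspg4, Olig1, Olig2, Sox10 and Nkx2-2), 4 under the committed, newly formed stage (Gpr17, Enpp6, Bcas1 and Myrf) and 28 under the myelin stage. The precursor group is not confined to precursors, since Sox10 is kept on into mature oligodendrocytes. The study asked how the diet of the mother alters the RNA on the ribosomes of POMC neurons in her offspring. POMC neurons are appetite-suppressing neurons of the hypothalamus, and in POMC RiboTag mice their ribosomes carry an HA tag. RNA was pulled down with an HA antibody from homogenised mediobasal hypothalamus, and 17 libraries were sequenced. All groups were offspring of POMC RiboTag dams that were put on their diet at 6 weeks of age, mated after 4 weeks and kept on that diet. Offspring of dams on standard chow gave 5 libraries at postnatal day 0 (P0, birth) and 3 at day 21 (P21, weaning). Offspring of dams on a 45% high-fat diet (HFD) gave 5 libraries at P0 and 4 at P21. Which recombinase driver was used, the sex of the offspring and the animals or pools behind each library: none of these is given in the sources used here. The labels call the replicates biological without tying them to animals, and p-values here reflect only the spread from library to library.

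Oligodendrocytes are the myelin-forming glia of the brain. They arise from dividing precursors that carry the receptor Pdgfra and the proteoglycan Cspg4 (NG2). Precursors that leave the cell cycle pass through a short committed stage, and the regulator Myrf then switches on the genes of the sheath. In mice most of this takes place in the weeks after birth, while a pool of precursors persists into adult life. These are not genes that POMC neurons are known for, although some of them, Qdpr, Sirt2, Cd9, Car2 and Plekhb1 among them, are also made by other cells. In such pull-downs of bulk tissue, fewer cells of a type and less RNA per cell cannot be told apart, and neither can the amount of unbound RNA carried along from other cells. Libraries of the unselected tissue were not analysed here.

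Values are normalized read counts in which a library sums to 0.908 to 1.105 M (M, mega), and 1 read was worth 0.0275 to 0.0460 units. The depth was 22.4 to 37.1 M reads. A value of 0 allows up to 3 reads, or 0.0826 to 0.138 units, from counting error alone. Together the members took 0.0865% to 0.166% of the reads in chow P0 libraries, 0.0869% to 0.101% in HFD P0, 0.754% to 1.58% in chow P21 and 0.385% to 0.606% in HFD P21. Pomc itself was measured at 146 to 1308 in chow P0, 90.7 to 1057 in HFD P0, 3878 to 12070 in chow P21 and 7460 to 9818 in HFD P21 libraries. A pair of chow libraries stood apart in the lineage genes. Chow P0 replicate 3 was the highest of the 5 chow P0 libraries for 24 of the 38 members, against 14.9% of the 14086 genes tested at P0. Of the 24, 19 belong to the myelin stage. The 38 include 7 members that were not tested at P0. Chow P21 replicate 3 was the highest of its 3 for 37 of the 38, against 36.8% of the 14070 genes tested at P21. It was also the highest of all 7 P21 libraries for 37, against 21.7% of the genes tested. In that P21 library the myelin members had a median of 0.97 log2 units above the mean of the other chow P21 libraries. On the same scale the medians of marker lists of other cells were 0.70 for microglia, 0.55 for astrocytes, 0.34 for endothelial cells and -0.90 for POMC neurons. Pomc itself went the other way and was highest there, at 12070 against 4679 and 3878 in the other chow P21 libraries. In chow P0 replicate 3 the myelin members stood 0.66 above, the committed members 0.99, the astrocyte list 0.28 and the microglia list 0.17. The part of these other cell types in the results was not tested, and results that rest on either library are given with and without it.

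Per kilobase of exonic length, the highest mean level in chow P0 libraries was that of Olig1, a transcription factor of the lineage, at 78.1 ± 24.7 units per kilobase (SD, n = 5). Qdpr, an enzyme that recycles a cofactor of amine synthesis, followed at 61.5 ± 15.9, the tetraspanin Cd9 at 37.6 ± 3.96, and Cnp, an enzyme of non-compact myelin, at 28.4 ± 7.16. The ranges of neighbours in this order overlapped, and those of Olig1 (49.9 to 110.2) and Cd9 (31.5 to 42.2) did not. By P21 the order had changed. Mbp, the basic protein of compact myelin, came first in chow offspring at 572 ± 180 units per kilobase (n = 3), followed by Cnp at 293 ± 137, Mog at 184 ± 98.3, Qdpr at 152 ± 19.9, Mal at 144 ± 70.7 and Olig1 at 141 ± 56.4, and the ranges of neighbours overlapped. In HFD offspring at P21, Mbp led at 227 ± 78.5 units per kilobase (n = 4), then Qdpr at 153 ± 10.3, Cnp at 128 ± 26.0 and Plekhb1, a membrane adaptor, at 99.7 ± 2.28. Only the last of these 3 steps, from Cnp to Plekhb1, separated ranges that did not overlap. Exons of 15 of the 38 members overlap those of another annotated gene, in 6 of them over more than 10% of the exonic bases. Trf shares 63.5% with the gene model Gm20425 and Evi2a 19.2% with Evi2, both on the same strand. Qdpr shares 18.6%, Nkx6-2 12.9%, Bcas1 12.6% and Cd9 10.7% with genes on the opposite strand. How the counting treated strand is not given in the sources used here, and the levels of these genes are uncertain.

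**Figure D1:**
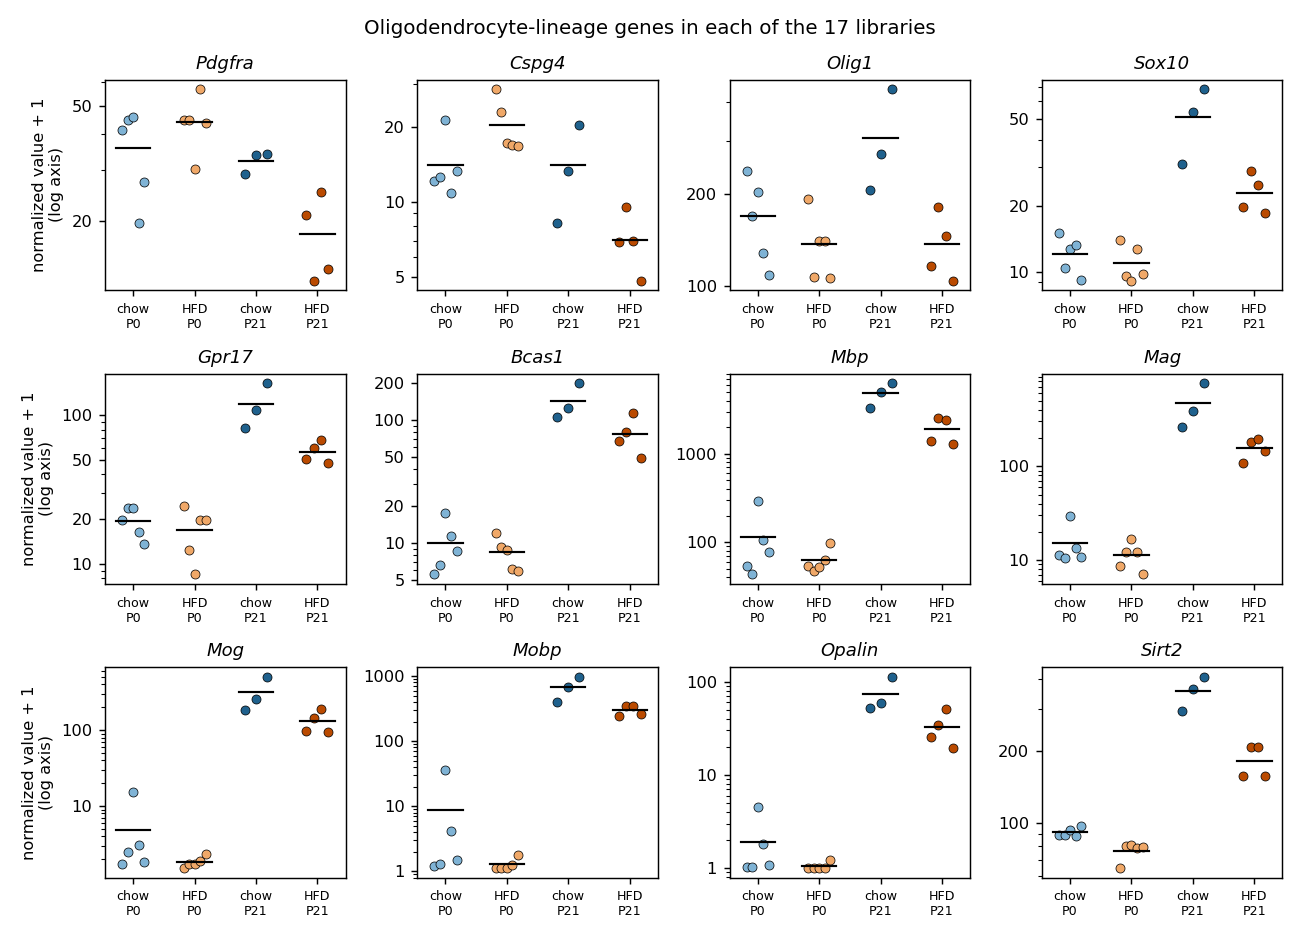
Normalized value + 1 of 12 lineage genes on log axes, 1 point per library in replicate order, with a line at each group mean + 1. Chow P0 replicate 3 stands above its group for Mbp, Mag, Mog, Mobp and Opalin. It does so too for Cspg4 and Bcas1, and by a narrow margin for Pdgfra and Gpr17. The chow P21 points lie above the HFD P21 points for 9 of the 12 genes, the others being Cspg4, Bcas1 and Mog.

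Setting P21 against P0 among the offspring of chow-fed dams shows what the lineage genes did between birth and weaning under the control diet. Of the 38 members, 34 rose and none fell at an adjusted p under 0.05 in limma, against 18.3% of the 14549 genes tested that rose and 17.7% that fell. All 28 myelin members and all 4 committed members rose, while only Olig1 and Sox10 did so among the 6 precursor members. The median log2 difference was 3.57 over the myelin members, 3.43 over the committed members and -0.07 over the precursor members, beside -0.01 over all genes tested. The P21 libraries lay above all P0 libraries for 33 members, against 19.3% of all genes. These differences are of log2(value + 1), a scale that understates the change of genes near 0. Enpp6, Mobp, Opalin, Aspa, Tmem125 and Hapln2 passed the filter on low values through their P21 libraries alone, so that their place among the tested genes already asked for a higher level at P21. All 6 are among the 34 that rose, and their p-values are no separate evidence of a rise.

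The precursor genes are given first, with the libraries of each group in replicate order. Pdgfra, the receptor through which a growth factor drives precursor division, was measured at 40.1, 43.6, 44.7, 18.8 and 26.3 in the 5 chow P0 libraries and at 28.1, 32.7 and 33.1 in the 3 chow P21 libraries. The P21 values lay inside the P0 range, and the log2 difference was -0.08 (SE 0.27, limma adjusted p = 0.851). Cspg4, the NG2 proteoglycan, stood at 11.2, 11.6, 20.3, 9.84 and 12.3 at P0 and at 7.2, 12.4 and 19.5 at P21. Both groups spanned nearly the same range, with a log2 difference of -0.06 (SE 0.32, limma adjusted p = 0.907). Nkx2-2, a homeodomain factor of precursors that is also used by neural progenitors, was at 12.9, 7.57, 9.32, 5.54 and 5.89 at P0 and at 5.82, 7.49 and 8.5 at P21, again overlapping (log2 difference -0.12, SE 0.31, limma adjusted p = 0.795). For these 3 genes the sign of the small difference turned when single libraries were left out. Olig2, the factor that specifies the lineage, was at 46.98, 55.9, 19.9, 18.2 and 27.4 at P0. Its P21 values of 32.1, 17.2 and 15.6 overlapped with them, at a log2 difference of -0.55 (SE 0.37, limma adjusted p = 0.266).

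Among the precursor genes that rose, Olig1 went from 238, 168, 203, 128 and 108 at P0 to 205, 269 and 441 at P21. The groups overlapped, and the rise of 0.83 log2 units (SE 0.28, limma adjusted p = 0.0328) was lost when any 1 of 4 libraries was left out, with an adjusted p of 0.0571 without chow P0 replicate 5, 0.0622 without chow P0 replicate 4, 0.0703 without chow P21 replicate 2 and 0.177 without chow P21 replicate 3. It was also lost when libraries were rescaled to equal sums (0.0635). Sox10, which is kept on from precursor to mature oligodendrocyte, stood at 14.04, 9.37, 11.8, 12.2 and 8.17 at P0 and at 30.1, 52.3 and 67.05 at P21, with every P21 value above every P0 value and a log2 difference of 2.02 (SE 0.28, limma adjusted p = 0.000126).

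The committed genes mark cells that have left the precursor stage. Gpr17, a receptor present for a short time in such cells, was at 18.7, 22.8, 22.9, 15.4 and 12.6 at P0 and at 80.7, 108 and 164 at P21. Bcas1, a marker of early myelinating cells, was at 4.58, 5.61, 16.4, 10.5 and 7.65 at P0 and at 104, 124 and 198 at P21. In both genes the groups were far apart, with log2 differences of 2.58 (SE 0.26) and 3.91 (SE 0.35). Enpp6, an enzyme of newly forming oligodendrocytes, was listed at 0 in chow P0 replicate 2 and stood at 5.74 in replicate 3, while the other chow P0 libraries held 0.16 to 0.76. At P21 it stood at 30.2, 38.5 and 60.8. Myrf, the regulator of myelin genes, was at 0.93, 5.73, 5.19, 1.91 and 2.96 at P0 and at 21.2, 24.2 and 47.2 at P21. Enpp6 and Myrf rose by 4.53 (SE 0.53) and 2.94 (SE 0.43) log2 units, and the limma adjusted p over the 4 committed genes was between 4.85e-06 and 0.000183.

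The largest rises were among the sheath genes. Mobp, a basic protein of compact myelin, was at 0.20, 0.28, 35.2, 3.11 and 0.52 at P0 and at 405, 669 and 971 at P21. Mog, on the outer surface of the sheath, went from 0.70, 1.48, 14.4, 2.11 and 0.84 at P0 to 183, 254 and 502 at P21. At birth both stood at 3.11 or lower in all chow libraries but replicate 3. On the log2(value + 1) scale they had the largest rises of the 38, at 7.64 log2 units (SE 0.89, limma adjusted p = 3.59e-05) for Mobp and 6.45 (SE 0.60, limma adjusted p = 7.25e-06) for Mog. Without chow P0 replicate 3 the rises were 8.51 and 7.01. Opalin, a membrane protein of oligodendrocytes, was at 0.03, 0.04, 3.52, 0.80 and 0.08 at P0. By P21 it had reached 51.4, 57.6 and 112, and its log2 difference was 5.49 (SE 0.48, limma adjusted p = 4.60e-06). The order of Mog and Opalin turned in edgeR on recovered reads, with 6.32 for Opalin and 6.30 for Mog. Mbp was already at 52.6, 42.2, 292, 105 and 76.9 at P0, with replicate 3 again the highest. At P21 it was at 3257, 4968 and 6296 and its log2 difference was 5.71 (SE 0.48, limma adjusted p = 3.43e-06). Mag, an adhesion protein of the inner sheath surface, went from 10.3, 9.61, 28.6, 12.4 and 9.69 at P0 to 262, 390.1 and 768 at P21. All 3 P21 values of Mag lay above the P0 values, with a log2 difference of 4.95 (SE 0.37, limma adjusted p = 1.61e-06).

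The other sheath genes rose by 1.21 to 5.95 log2 units. The largest of these rises were in Mal, a membrane protein of compact myelin, at 5.95 (SE 0.62), and in Fa2h, the hydroxylase that makes the fatty acids of myelin lipids, at 5.19 (SE 0.52). Next to them, Cldn11, the tight-junction protein of the sheath, rose by 4.55 (SE 0.46), Ermn, a cytoskeletal protein, by 4.54 (SE 0.49) and Ugt8a, which makes galactosylceramide, by 4.53 (SE 0.51). The smallest rises were those of genes already well measured at birth. Cd9 rose by 1.21 (SE 0.25), Qdpr by 1.33 (SE 0.21), the lysophosphatidic acid receptor Lpar1 by 1.49 (SE 0.26), the lipid carrier Apod by 1.56 (SE 0.26) and Gal3st1, which makes sulfatide, by 1.74 (SE 0.32). Sirt2, a deacetylase of the cytoplasm that is abundant in myelin, went from 88.2, 88.6, 92.6, 87.2 and 96.4 at P0 to 293, 362 and 406 at P21. Its libraries at birth lay close together, and the log2 difference was 1.94 (SE 0.14, limma adjusted p = 1.52e-06). With both chow replicates that stood apart left out together, 33 members rose, Olig1 being the one lost, and the median over the 38 was 2.93 in place of 3.11.

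The sequence before the start site is shown for 6 genes the comparisons turn on: the sheath genes Mobp, Mog and Opalin, which rose with age, the precursor genes Pdgfra and Cspg4, which did not rise, and Sirt2. Of the 38 members, 28 matched a promoter entry of RefSeq (build GRCm38.p6), with 39 start sites between them. The windows are the 250 bases before the start, read 5′ to 3′ on the strand of the gene. They lie at chr9:120149492-120149741 (plus strand) for Mobp, chr17:37023399-37023648 (minus) for Mog, chr19:41077114-41077363 (minus) for Opalin, chr5:75152001-75152250 (plus) for Pdgfra, chr9:56864854-56865103 (plus) for Cspg4 and chr7:28766502-28766751 (plus) for Sirt2. Capitals mark matches, on either strand, to short motifs of 3 factor families of the lineage.
Mobp: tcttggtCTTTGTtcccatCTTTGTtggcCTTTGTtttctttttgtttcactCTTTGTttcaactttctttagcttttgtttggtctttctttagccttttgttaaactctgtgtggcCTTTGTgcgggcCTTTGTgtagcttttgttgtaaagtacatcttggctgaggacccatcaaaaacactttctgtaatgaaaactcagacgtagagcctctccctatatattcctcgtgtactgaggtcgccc
Mog: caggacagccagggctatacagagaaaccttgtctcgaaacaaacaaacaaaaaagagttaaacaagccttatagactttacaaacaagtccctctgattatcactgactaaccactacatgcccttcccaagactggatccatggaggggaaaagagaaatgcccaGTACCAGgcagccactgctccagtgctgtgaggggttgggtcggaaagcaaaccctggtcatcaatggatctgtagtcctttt
Opalin: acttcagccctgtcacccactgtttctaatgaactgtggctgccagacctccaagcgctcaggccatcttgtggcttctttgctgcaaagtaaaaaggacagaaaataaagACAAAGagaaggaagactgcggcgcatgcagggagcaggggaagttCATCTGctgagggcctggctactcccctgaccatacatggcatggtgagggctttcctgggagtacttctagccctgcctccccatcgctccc
Pdgfra: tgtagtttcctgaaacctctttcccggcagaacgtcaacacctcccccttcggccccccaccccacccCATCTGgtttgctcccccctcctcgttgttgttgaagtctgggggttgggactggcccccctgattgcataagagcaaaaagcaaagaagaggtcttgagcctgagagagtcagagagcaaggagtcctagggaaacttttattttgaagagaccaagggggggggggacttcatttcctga
Cspg4: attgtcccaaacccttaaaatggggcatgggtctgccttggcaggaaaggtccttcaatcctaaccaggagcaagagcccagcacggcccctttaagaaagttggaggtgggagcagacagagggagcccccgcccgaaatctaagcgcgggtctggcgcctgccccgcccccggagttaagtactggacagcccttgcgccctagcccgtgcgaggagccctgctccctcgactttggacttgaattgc
Sirt2: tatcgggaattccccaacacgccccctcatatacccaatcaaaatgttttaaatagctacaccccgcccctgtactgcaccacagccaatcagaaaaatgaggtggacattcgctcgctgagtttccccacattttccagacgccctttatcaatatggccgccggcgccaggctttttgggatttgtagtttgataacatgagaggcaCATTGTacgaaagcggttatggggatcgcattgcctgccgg
The motifs searched were ACAAAG and ACAATG for SOX factors such as Sox10, CAGCTG and CAGATG for E-boxes such as those of Olig2, and CTGGCAC and CTGGTAC for Myrf, each on both strands, and none of the matches in the printed windows overlapped another. The Mobp window held 6 SOX matches, all in the reverse orientation (CTTTGT). The Mog window held 1 Myrf match, the Opalin window 1 SOX match and 1 E-box, the Pdgfra window 1 E-box and the Sirt2 window 1 SOX match, and the Cspg4 window held none of the 3 motifs. Over 32851 windows of the same length before RefSeq start sites, 25.2% held a SOX match, 25.5% an E-box and 5.93% a Myrf match. Of the 39 member windows 19 held a SOX match, 13 an E-box and 6 a Myrf match. A match is a description of the letters and not a site of binding.

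The same comparison in HFD offspring shows the change from birth to weaning under the maternal high-fat diet. Here 29 of the 38 members rose and 3 fell in limma, against 24.7% of the 14245 genes tested that rose and 26.2% that fell. The P21 libraries lay above all P0 libraries for 28 members, against 19.0% of all genes, and below them for 3, against 19.7%. All 4 committed genes and 24 of the 28 myelin genes rose, and the 3 genes that fell were the precursor genes Pdgfra, Cspg4 and Nkx2-2. The median log2 difference was 2.87 over the myelin members, 2.61 over the committed members and -0.64 over the precursor members, beside -0.05 over all genes tested. Of the 8 endothelial marker genes, 6 fell and 1 rose in HFD offspring, at a median of -1.60. In chow offspring, where 17.7% of all genes fell, 1 fell and 1 rose, at a median of -0.26. Among the 10 astrocyte genes, 2 fell and 6 rose in HFD offspring, and none fell and 8 rose in chow offspring. Among the 10 microglia genes none fell, while 3 rose in HFD and 8 in chow offspring. The part of other cells in the fall of the 3 precursor genes was not tested. The filter on low values was passed through the P21 libraries alone by 10 members (Enpp6, Mog, Mobp, Opalin, Fa2h, Ermn, Aspa, Gjb1, Tmem125 and Hapln2). Testing these genes therefore already asked for a higher level at P21. All of these but Hapln2 are among the 29 that rose.

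Pdgfra was at 43.6, 43.6, 29.4, 55.8 and 42.5 in the 5 HFD P0 libraries and at 19.99, 11.5, 24.1 and 12.7 in the 4 HFD P21 libraries. It fell by 1.31 log2 units (SE 0.25, limma adjusted p = 0.000666). Cspg4 stood at 27.5, 21.99, 16.3, 16.01 and 15.9 at P0 and at 5.89, 8.53, 5.94 and 3.83 at P21, and fell by 1.55 log2 units (SE 0.27, limma adjusted p = 0.000324). In both genes every P21 value lay under every P0 value. Nkx2-2 stood at 9.53, 16.3, 10.8, 10.3 and 4.36 at P0 and at 4, 3.4, 2.92 and 3.13 at P21, and fell by 1.28 log2 units (SE 0.32, limma adjusted p = 0.00434). Its groups were separated by a narrow gap, since HFD P0 replicate 5 was low. The fall of all 3 was called in each of the 10 other settings and each of the 9 leave-one-out fits of this comparison.

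Olig1 was at 192, 106, 140.1, 139 and 105 at P0 and at 115, 181, 145 and 103 at P21, with both groups over the same range (log2 difference -0.0018, SE 0.21, limma adjusted p = 0.995). Olig2 was at 15.1, 20.04, 16.2, 14.2 and 3.28 at P0, with replicate 5 the lowest of all 17 libraries, and at 8.98, 27.7, 19.2 and 20.03 at P21 (log2 difference 0.52, SE 0.43, limma adjusted p = 0.331). Sox10 was the precursor-stage gene that rose, from 12.9, 8.56, 8.12, 11.7 and 8.75 at P0 to 18.7, 27.9, 23.9 and 17.5 at P21, by 1.06 log2 units (SE 0.24, limma adjusted p = 0.00221). Of the committed genes, Gpr17 went from 23.4, 11.4, 7.52, 18.8 and 18.8 at P0 to 50.2, 58.9, 67.5 and 46.5 at P21. Bcas1 went from 11.02, 8.26, 7.74, 5.16 and 4.89 to 66.4, 78.8, 114 and 48.1. Enpp6 went from 1.65, 0.04, 0.63, 0 and 0.38 to 19.1, 18.8, 26.1 and 15.1. All 3 had P21 values clear of the P0 values, at log2 differences of 1.82 (SE 0.29), 3.19 (SE 0.28) and 3.83 (SE 0.33). Myrf went from 1.01, 0.55, 4.35, 6.52 and 1.61 to 9.96, 11.4, 17.03 and 10.9, with a log2 difference of 2.04 (SE 0.43), and the limma adjusted p over the 4 genes was between 7.82e-07 and 0.0013.

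Mobp was at 0.12, 0.13, 0.13, 0.24 and 0.76 in HFD P0 libraries, near the limit of 3 reads in the first 3 replicates, and at 239, 343, 349.6 and 265 at P21. Its rise of 7.88 log2 units (SE 0.24, limma adjusted p = 4.26e-11) was again the largest of the 38 on this scale. Mog was at 0.52, 0.72, 0.73, 0.88 and 1.35 at P0 and at 95.9, 144, 188 and 93.2 at P21, a rise of 6.11 (SE 0.27, limma adjusted p = 1.98e-09). Opalin was listed at 0 in 4 of the 5 HFD P0 libraries and at 0.23 in replicate 5. At P21 it stood at 24.6, 33.3, 50.3 and 18.4, a rise of 4.87 (SE 0.31, limma adjusted p = 5.64e-08). All 3 genes stood at 1.35 or lower in every HFD library at birth and at 18.4 or higher in every one at weaning. They passed the filter through those P21 libraries alone, so their p-values are no separate evidence of the rise. Mbp went from 52.6, 46.6, 51.97, 62.5 and 96.8 at P0 to 1403, 2567, 2425 and 1299 at P21, by 4.91 log2 units (SE 0.25, limma adjusted p = 7.08e-09). Mag went from 7.64, 11.2, 15.8, 11.1 and 6.06 to 109, 182, 195 and 144, by 3.83 (SE 0.26, limma adjusted p = 1.07e-07). Sirt2 went from 63.9, 79.2, 80.2, 77.8 and 78.2 to 156, 206, 207 and 155, by 1.24 (SE 0.15, limma adjusted p = 1.84e-05), with every P21 value above every P0 value.

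Besides Olig1 and Olig2, 4 members did not pass in HFD offspring, all of the myelin stage. Apod was at 62.7, 117, 76.3, 72.5 and 40.96 at P0 and at 64.5, 89.2, 91.8 and 52.5 at P21, with a log2 difference of 0.05 (SE 0.26, limma adjusted p = 0.879). Its highest value of the 9 libraries was in HFD P0 replicate 2 and its lowest in HFD P0 replicate 5. Cd9 had a log2 difference of 0.16 (SE 0.24), Lpar1 of 0.39 (SE 0.18) and Hapln2, a link protein at the nodes of Ranvier, of 0.82 (SE 0.43). The 4 genes did pass in chow offspring, where Apod went from 43.1, 64.3, 54.2, 33.5 and 38.6 at P0 to 95.2, 129.99 and 205 at P21. That alone does not show that the diets differ, which is the question of the interaction test given further on. Gal3st1 rose by 0.98 (SE 0.34, limma adjusted p = 0.0274), and this call was lost when any 1 of 4 libraries was left out (adjusted p 0.0507 to 0.0905) and with equal library sums (0.0685). Apart from Gal3st1 and the genes given by library, the myelin genes that rose did so by 1.49 (Qdpr) to 5.43 (Mal) log2 units.

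**Figure D2:**
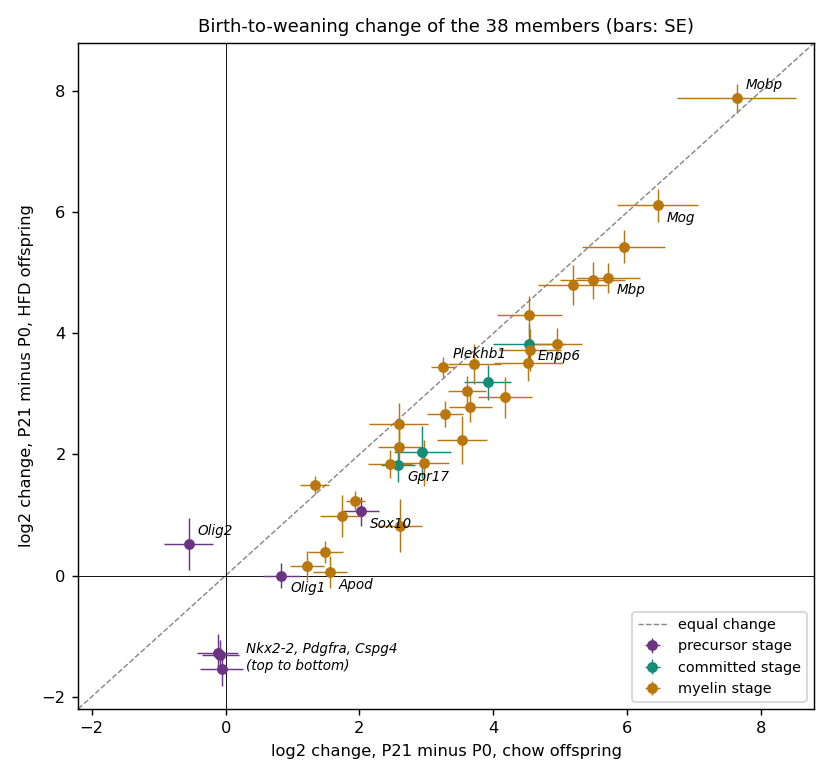
Log2 change from P0 to P21 in chow offspring (horizontal axis) and HFD offspring (vertical axis) for each of the 38 members, with SE bars and a dashed line of equal change. Nkx2-2, Pdgfra and Cspg4 sit near 0 in chow and at -1.28 to -1.55 in HFD offspring, and 34 of the 38 members sit under the dashed line.

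Precursor and myelin stages can be set side by side in each library as the mean of log2(value + 1) over the 28 myelin members minus that over the 6 precursor members. This stage balance was -1.26 ± 0.48 in chow P0 libraries (SD, n = 5) and -1.51 ± 0.35 in HFD P0 libraries (n = 5). At P21 it was 2.07 ± 0.35 in chow offspring (n = 3) and 1.90 ± 0.16 in HFD offspring (n = 4). The sign was negative in all 10 P0 libraries and positive in all 7 P21 libraries. At birth the balance lay between -1.91 and -0.61 in chow libraries, with replicate 3 at -0.61, and between -1.86 and -0.99 in HFD libraries. At P21 the diets overlapped, chow lying between 1.77 and 2.45 and HFD between 1.70 and 2.09, although both component means were lower in HFD offspring. The precursor mean was 4.99 ± 0.27 in chow and 4.13 ± 0.22 in HFD offspring, and the myelin mean 7.06 ± 0.62 and 6.03 ± 0.34. The committed mean was 6.06 ± 0.52 and 5.02 ± 0.33. These means are descriptions of chosen genes and carry no test. The precursor mean includes Sox10, which rose with age under both diets, so it does not measure precursors alone.

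**Figure D3:**
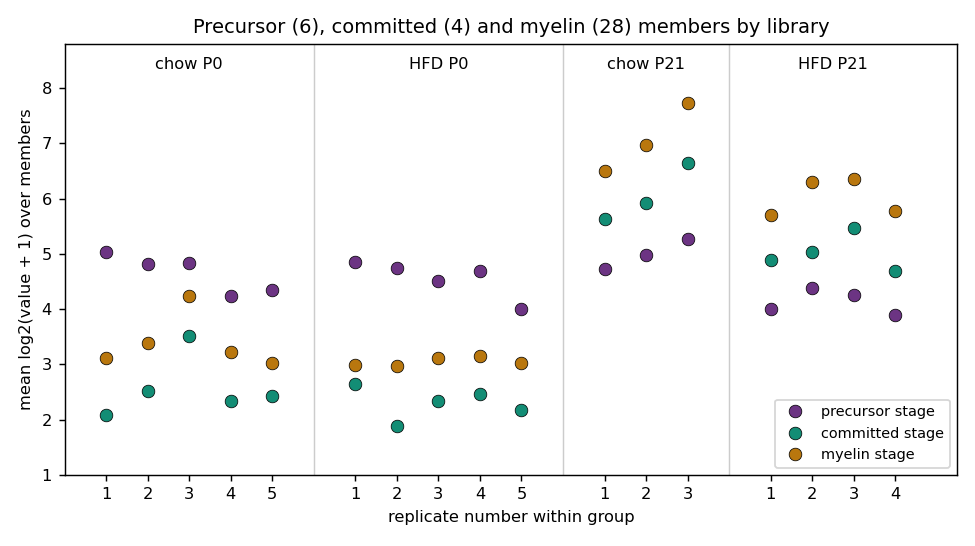
Mean log2(value + 1) over the 6 precursor, 4 committed and 28 myelin members in each of the 17 libraries, by group and replicate. The precursor points lie above the myelin points in all 10 P0 libraries and below them in all 7 P21 libraries, and chow P0 replicate 3 has the highest myelin and committed points at P0.

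Whether the change with age differed between the diets was tested as the interaction of diet and age over all 17 libraries. No member passed in limma, and 4 of the 15037 genes tested (0.0266%) did. The edgeR count test on recovered reads called no member either, and DESeq2, an alternative chosen after seeing the data, called 4 lower (Cspg4, Sirt2, Lpar1 and Apod). The share of all genes that DESeq2 called in this test is not given here, so its 4 calls cannot be set against a background. At an unadjusted p under 0.05, 14 members had a more negative change in HFD than in chow offspring, against 8.36% of all genes, and none a more positive one. The interaction was below 0 for 34 of the 38 members, against 52.9% of all genes, with a median of -0.75 beside -0.04 over all genes tested. Markers of other cells were read in the same test. All 10 astrocyte genes (median -0.75, 1 passing), all 10 microglia genes (-0.85) and all 8 endothelial genes (-1.35) were below 0. Of 8 POMC-neuron genes 1 was below 0, and of 8 pan-neuronal genes 3 were. The more negative change was thus not particular to the lineage genes, and the part of other cells in it was not tested. Among the 38 members the lowest adjusted p belonged to Apod, at -1.51 (SE 0.40, limma adjusted p = 0.109). Next came Lpar1 at -1.11 (SE 0.31, adjusted p = 0.125), then Sirt2 at -0.71 (SE 0.20) and Cspg4 at -1.49 (SE 0.42), both at an adjusted p of 0.130. Pdgfra stood at -1.24 (SE 0.38, adjusted p = 0.152) and Hapln2 at -1.79 (SE 0.56, adjusted p = 0.155). The 4 members above 0 were Olig2 at 1.07 (SE 0.63), Mobp at 0.24 (SE 0.98), Plekhb1 at 0.19 (SE 0.24) and Qdpr at 0.16 (SE 0.26). The sign of Mobp rested on chow P0 replicate 3. Without that library its rise was 8.51 in chow, against 7.88 in HFD offspring, and 35 of the 38 members were below 0. The median moved from -0.75 to -0.99 without chow P0 replicate 3 and to -0.51 without chow P21 replicate 3. Without chow P21 replicate 1 Lpar1 passed (adjusted p = 0.0423), where 0.310% of all genes did. Without HFD P0 replicate 5 both Lpar1 (0.0486) and Apod (0.0242) passed, 2 of 38 members in a fit that called 3.71% of all genes.

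At weaning, the comparison of HFD with chow offspring asks how the maternal diet related to the lineage genes once myelin was being made. The members stood lower in HFD offspring almost throughout, at 29.7% to 57.5% of the chow mean for 35 of the 38, but only 1 member fell at an adjusted p under 0.05 in limma, against 0.0782% of the 14070 genes tested. Without chow P21 replicate 3 these 35 members stood at 39.6% to 86.3% of the chow mean, and 22 of the 38 were under 60%. The percentage moved by over 1.5 times for 6 of them, Aspa, Gjb1, Ugt8a, Ermn, Trf and Car2, of which Car2 went from 53.3% to 86.3% and Trf from 49.7% to 79.8%. With all libraries the log2 difference was below 0 for 37 members, against 52.1% of all genes, and 34 had an unadjusted p under 0.05 with a lower level, against 9.17%. All HFD libraries lay under all chow libraries for 24 members, against 7.78%. The median difference was -1.02 over the 38, with -0.93 over the precursor, -1.03 over the committed and -1.04 over the myelin members, beside -0.02 over all genes tested. These chow libraries are the same ones that enter the change with age in chow offspring, and the HFD libraries those of the change in HFD offspring.

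The gene that fell was Sirt2. It was at 293, 362 and 406 in the 3 chow P21 libraries and at 156, 206, 207 and 155 in the 4 HFD P21 libraries. The groups were well separated, with means of 353.7 ± 57.4 (SD, n = 3) and 181 ± 29.2 (n = 4), and the log2 difference was -0.96 (SE 0.16, limma adjusted p = 0.0439). The call lay close to the threshold. It was lost with a pseudocount of 0.1, without the filter on low values, with TMM factors and in edgeR on recovered reads (adjusted p 0.0530 to 0.0635). It was also lost without each of 6 single libraries in turn (0.0541 to 0.180), and the difference stayed between -0.86 and -1.03 in those 6 fits. The library whose removal kept it was chow P21 replicate 1. Without that replicate 9 members passed, namely Sox10, Gpr17, Mbp, Mag, Cnp, Mobp, Fa2h, Sirt2 and Lpar1, and the median was -1.34, in a fit that called 0.356% of all genes. Without chow P21 replicate 3 none passed, 37 of 38 remained below 0 and the median was -0.77. DESeq2 called 21 members lower, with 4.39% of all genes called, while edgeR called none, with 15 genes called in all.

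The precursor genes take the same order as above, each with its 3 chow libraries before its 4 HFD libraries. Pdgfra stood at 28.1, 32.7 and 33.1 against 19.99, 11.5, 24.1 and 12.7, and Cspg4 at 7.2, 12.4 and 19.5 against 5.89, 8.53, 5.94 and 3.83. Pdgfra did not overlap between diets (log2 difference -0.89, SE 0.27, limma adjusted p = 0.143). Cspg4 did, through its lowest chow library (-0.94, SE 0.36, limma adjusted p = 0.218). Olig1 stood at 205, 269 and 441 against 115, 181, 145 and 103, and Sox10 at 30.1, 52.3 and 67.05 against 18.7, 27.9, 23.9 and 17.5. Both were separated, at -1.12 (SE 0.25, limma adjusted p = 0.0820) and -1.10 (SE 0.27, limma adjusted p = 0.103). Nkx2-2 was separated too, with 5.82, 7.49 and 8.5 against 4, 3.4, 2.92 and 3.13 (-0.92, SE 0.28). Olig2 was the precursor gene with the smallest difference, 32.1, 17.2 and 15.6 against 8.98, 27.7, 19.2 and 20.03, and its groups overlapped (-0.20, SE 0.36, limma adjusted p = 0.809).

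Gpr17 stood at 80.7, 108 and 164 in chow and at 50.2, 58.9, 67.5 and 46.5 in HFD offspring (-1.01, SE 0.23, limma adjusted p = 0.0820). Enpp6 stood at 30.2, 38.5 and 60.8 against 19.1, 18.8, 26.1 and 15.1 (-1.05, SE 0.26, limma adjusted p = 0.103). Myrf stood at 21.2, 24.2 and 47.2 against 9.96, 11.4, 17.03 and 10.9 (-1.20, SE 0.30, limma adjusted p = 0.103). In these 3 committed genes every HFD value lay under every chow value. Bcas1 overlapped through HFD P21 replicate 3, with 104, 124 and 198 against 66.4, 78.8, 114 and 48.1 (-0.89, SE 0.28, limma adjusted p = 0.153).

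For the sheath proteins, Mbp stood at 3257, 4968 and 6296 in chow and at 1403, 2567, 2425 and 1299 in HFD offspring (-1.35, SE 0.28, limma adjusted p = 0.0727). Mag stood at 262, 390.1 and 768 against 109, 182, 195 and 144 (-1.47, SE 0.31, limma adjusted p = 0.0768). Mobp stood at 405, 669 and 971 against 239, 343, 349.6 and 265 (-1.12, SE 0.25, limma adjusted p = 0.0820). None of these 3 overlapped between diets, and in each the 2 lowest of the 4 HFD libraries were replicates 1 and 4. Mog stood at 183, 254 and 502 against 95.9, 144, 188 and 93.2, overlapping by HFD replicate 3 alone (-1.19, SE 0.32, limma adjusted p = 0.116). Opalin stood at 51.4, 57.6 and 112 against 24.6, 33.3, 50.3 and 18.4, a narrow separation (-1.20, SE 0.33, limma adjusted p = 0.122). Apod stood at 95.2, 129.99 and 205 against 64.5, 89.2, 91.8 and 52.5 (-0.90, SE 0.26, limma adjusted p = 0.133), also separated narrowly. Over all 38 members, HFD P21 replicate 4 was the lowest of the 7 libraries for 18 and replicate 1 for 15.

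The remaining myelin members are given by function. The lipid enzymes were all lower in HFD offspring, with log2 differences of -1.17 for Fa2h (SE 0.32), -1.17 for Gal3st1 (SE 0.34) and -0.97 for Ugt8a (SE 0.34), none passing. The connexins of the sheath, Gjb1 and Gjc3, stood at -1.05 (SE 0.44) and -0.98 (SE 0.22). Nkx6-2, a transcription factor of maturing oligodendrocytes, stood at -1.56 (SE 0.29, limma adjusted p = 0.0635), Hapln2 at -1.52 (SE 0.47) and the membrane protein Tmem125 at -1.41 (SE 0.30). Which of the first 2 led depended on the scale, since Hapln2 was the lower as a share of the chow mean, at 29.7% against 32.4%. Aspa, which splits N-acetylaspartate in oligodendrocytes, stood at -1.34 (SE 0.40). The membrane and junction proteins stood at -0.97 for Mal (SE 0.36), -0.88 for Cldn11 (SE 0.39), -1.001 for Tspan2 (SE 0.26), -1.03 for Cd9 (SE 0.34) and -0.71 for Evi2a (SE 0.30). Cnp stood at -1.10 (SE 0.27), Ermn at -0.98 (SE 0.41) and Lpar1 at -1.11 (SE 0.24). The iron carrier Trf, at -0.78 (SE 0.39), and carbonic anhydrase Car2, at -0.76 (SE 0.36), were the members besides Olig2 and Qdpr with an unadjusted p above 0.05. Plekhb1 differed least among the sheath genes that did not overlap, at 79.2% of the chow mean (-0.32, SE 0.14). Qdpr averaged 272 ± 35.6 in chow and 274 ± 18.4 in HFD offspring, or 101% of the chow mean, and was the member whose difference was above 0 (0.01, SE 0.13, limma adjusted p = 0.971).

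**Figure D4:**
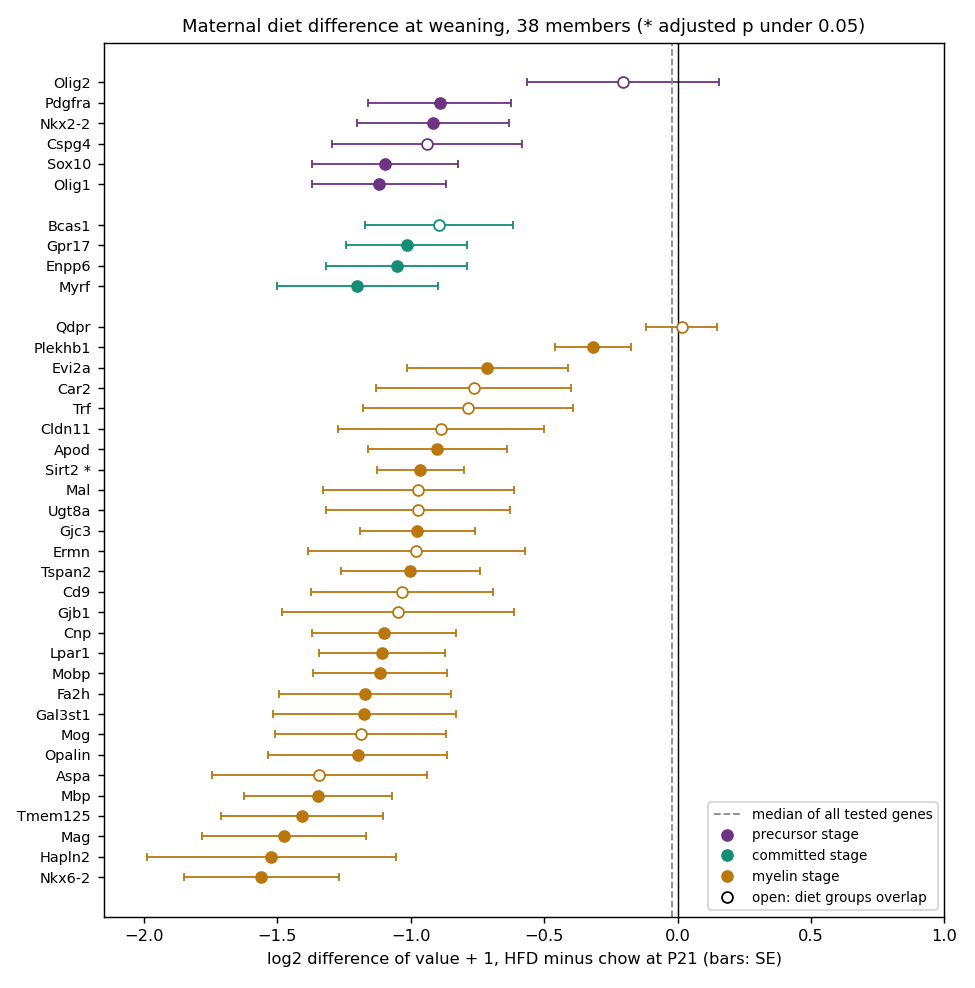
Log2 difference of value + 1, HFD minus chow offspring at P21, for each of the 38 members with SE bars, filled where the diet groups do not overlap. All points but that of Qdpr lie below 0 and most near -1, and Sirt2 (marked with a star) is the member with an adjusted p under 0.05.

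At birth, the comparison of HFD with chow offspring covered 31 of the 38 members, since Enpp6, Mog, Mobp, Opalin, Fa2h, Tmem125 and Hapln2 did not pass the filter on low values. No member passed in limma, where 41 of 14086 genes (0.291%) did, and none passed in edgeR or DESeq2 on recovered reads. The median difference was -0.26, beside -0.0024 over all genes tested, and 25 of the 31 were below 0, against 50.4% of all genes. Without chow P0 replicate 3 the median was -0.11, and 19 of the 31 were below 0. An unadjusted p under 0.05 was found for 6 of the 31, against 9.28% of all genes. Olig2, at 46.98, 55.9, 19.9, 18.2 and 27.4 in chow and 15.1, 20.04, 16.2, 14.2 and 3.28 in HFD libraries, had the lowest adjusted p of the 6 (-1.27, SE 0.42, limma adjusted p = 0.314), and its groups overlapped. Gjb1 (-0.96, SE 0.35), Plekhb1 (-0.51, SE 0.18) and Cnp (-0.49, SE 0.21) were also lower, and Apod (0.61, SE 0.25) and Cspg4 (0.55, SE 0.24) were higher. Cspg4 stood at 11.2, 11.6, 20.3, 9.84 and 12.3 in chow and 27.5, 21.99, 16.3, 16.01 and 15.9 in HFD libraries, where only chow replicate 3 reached the HFD range. Pdgfra had a log2 difference of 0.35 (SE 0.25, limma adjusted p = 0.709).

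Sirt2 was the member whose HFD libraries at birth all lay under the chow libraries, where 1.71% of all genes did. It stood at 88.2, 88.6, 92.6, 87.2 and 96.4 in chow and 63.9, 79.2, 80.2, 77.8 and 78.2 in HFD libraries (-0.26, SE 0.13, limma adjusted p = 0.554). Mbp stood at 52.6, 42.2, 292, 105 and 76.9 in chow and 52.6, 46.6, 51.97, 62.5 and 96.8 in HFD libraries, and its log2 difference of -0.55 (SE 0.40, limma adjusted p = 0.714) was -0.12 without chow P0 replicate 3. Of the genes left out by the filter, Mobp was the highest in chow libraries at birth. It averaged 7.85 ± 15.3 in chow, a mean carried by the 35.2 of replicate 3, and 0.276 ± 0.275 in HFD libraries.

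Lineage genes outside the 38 were read from the same fits. Of 14 other precursor genes, 5 rose and 4 fell with age in chow offspring, and 3 rose and 4 fell in HFD offspring. Over all genes tested with age, 18.3% rose and 17.7% fell in chow, and 24.7% rose and 26.2% fell in HFD offspring. The HFD counts of the precursor genes lay near these shares. Neu4, a sialidase, rose by 4.26 and 3.42 log2 units in chow and HFD offspring, and Vcan, a matrix proteoglycan, fell by 1.51 and 2.79. Of 20 other myelin genes 19 were in the table, and of the 18 tested with age all 18 rose in chow and 16 in HFD offspring. Some of these other genes passed the filter on low values only through their P21 libraries. They were Neu4, Ninj2 and Ppp1r14a under both diets, and also Matn4, Plekhh1 and Tmem88b in HFD offspring. Ninj2, for example, stood at 0.13 or lower in every P0 library. Testing such genes already asked for a higher level at P21, and their p-values are no separate evidence of a rise. At P21, HFD against chow, none of the 14 other precursor and none of the 19 other myelin genes passed in limma. Their medians were -0.81 and -0.88, with 13 of 14 and 18 of 19 below 0, against 52.1% of all genes. At an unadjusted p under 0.05, 7 and 11 of them were lower, against 9.17% of all genes. Of these other myelin genes, the one above 0 was Tppp3, at 0.57 (SE 0.16, limma adjusted p = 0.130).

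Markers of other cells were read beside these results. Over all genes tested at P21, 52.1% were below 0 and 0.0782% fell at an adjusted p under 0.05 in limma. At P21, all 10 astrocyte genes were lower in HFD offspring, with a median of -0.87 and a call for Hepacam (-1.36, SE 0.21, limma adjusted p = 0.0277) and Gjb6 (-1.31, SE 0.21, limma adjusted p = 0.0328). All 10 microglia genes and all 8 endothelial genes were lower too, at medians of -0.87 and -1.14, with no call. Of 8 POMC-neuron genes 2 were below 0, at a median of 0.64, and Cartpt, a peptide of POMC neurons, rose by 1.91 (SE 0.23, limma adjusted p = 0.0137). The 8 pan-neuronal genes had a median of -0.08. The summed level of the myelin members was 7103 to 15233 in chow P21 and 3831 to 6193 in HFD P21 libraries. For the astrocyte list it was 2462 to 3874 and 1326 to 2243, for the microglia list 358 to 591 and 223 to 317, and for the endothelial list 98.4 to 144 and 42.1 to 73.8. The POMC-neuron list summed to 6631 to 14261 in chow and 11861 to 14965 in HFD libraries. Myelin of peripheral nerve was looked for by 6 Schwann cell genes, of which 4 were in the table, and Prx, a defining protein of that cell, lay between 0 and 1.74 in the P21 libraries. Of the 3 tested at P21, Mpzl1 fell (-1.09, SE 0.18, limma adjusted p = 0.0433). Mpzl1 did not follow Prx in level, standing at 170 to 243 in the P0 libraries, where Prx stood at 0.48 to 5.47. Its fall is therefore not read as a change in Schwann cells. The part of these other cells in the lower level of the lineage genes was not tested.

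**Figure D5:**
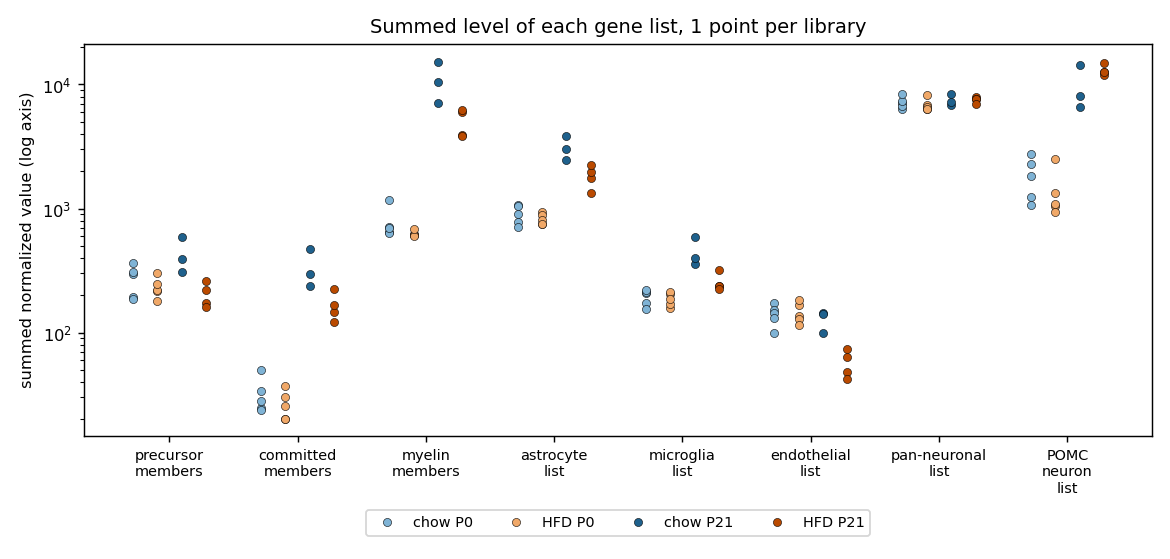
Summed normalized value of each list on a log axis, 1 point per library, coloured by group. At P21 the precursor, committed and myelin members and the astrocyte, microglia and endothelial lists lie lower in every HFD library than in every chow library, while the ranges of the pan-neuronal list overlap between all groups.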

How the data were processed

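RNA pulled down with HA-tagged ribosomes was sequenced with the Nextera XT kit as single reads of 50 bases on a HiSeq instrument, per the labels' protocols. TopHat2 2.0.13, HTSeq 0.6.1, Picard 1.80, FastQC and edgeR are named with build mm10 in the submitters' processing notes; their settings, the strand of counting and the gene filter were not given in the sources used here. One deposited table holds normalized signal per gene, in CPM-like units with 2 decimals that the authors had scaled; 15 further columns are empty. The design had foreseen an edgeR count test in case the values were counts. Since they are scaled, each comparison was fitted with limma 3.58.1 (R 4.3.3; trended, non-robust prior, no covariate) on log2(value + 1), over all genes above a value of 1 in no fewer libraries than the smaller group has, with Benjamini-Hochberg adjustment over all of them at 0.05, two-sided. Each of the 4 comparisons used its own libraries, and the interaction all 17. In every library 99.87% to 100% of non-zero values lay at a whole number of reads within rounding, against 22.2% to 37.0% by chance. The reads so recovered gave the depth, averaging 27.2, 26.6, 31.3 and 31.9 M reads in chow P0, HFD P0, chow P21 and HFD P21. They were tested with edgeR 4.0.16 and DESeq2 1.42.0 as alternatives; the rounding left the steps of 1 read sharp in 6 libraries and blurred in 11. Scripts were tested on simulated data. Gene positions and lengths are from GENCODE M21 (GRCm38, the same assembly as mm10), promoters from RefSeq.

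Libraries are given one by one for members called in a diet comparison, a fixed set of 15 stage genes, and the 2 largest rises and falls with age; other members are given by fold change or range. The members and marker lists were chosen with earlier results of these data known.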

Additional observations from a re-analysis of the deposited data

Results flagged for a closer look

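Within each group of 4 or 5 libraries, the highest or lowest value of each member was compared with its neighbours by Dixon's criterion at the 95% level. Of 114 groups looked at, 16 held a library far from the others. The level of 1 in 20 by chance holds for independent groups of normally distributed values. Here the genes share their libraries and some values lie near 0, so the count is not set against that level. Most of the 16, namely 11, were high values in chow P0 replicate 3. There Mbp stood at 291.9 (the other 4 libraries at 42.2 to 104.9), Plekhb1 at 63.4 (42.9 to 45.6), Mobp at 35.2 (0.20 to 3.11), Mag at 28.6 (9.61 to 12.4), Trf at 27.6 (11.7 to 16.3) and Mal at 27.2 (1.68 to 6.29). Cspg4 stood there at 20.3 (9.84 to 12.3), Mog at 14.4 (0.70 to 2.11), Ermn at 5.84 (0.44 to 1.67), Enpp6 at 5.74 (0 to 0.76) and Opalin at 3.52 (0.03 to 0.80). In HFD P0 replicate 5, Mobp was high at 0.76 (others 0.12 to 0.24) and Opalin at 0.23 (others 0). Sirt2 was low in HFD P0 replicate 1 at 63.9 (others 77.8 to 80.2). At P21, Qdpr was low in HFD replicate 4 at 246 (others 280 to 286), and Cd9 was high in HFD replicate 3 at 156 (others 64.6 to 79.9).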

How the results depend on the processing

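The rise of the lineage genes with age kept its calls best: 33 or 34 of 38 members rose in chow offspring and 28 to 30 rose and 3 fell in HFD offspring, under all settings and leave-one-out fits tried, and no member was called at P0. The single call at P21 was the least stable. It gave way to 0 calls with a pseudocount of 0.1, without the filter, with TMM factors and in edgeR, rose to 2 with a robust prior and to 21 in DESeq2, and ranged from 0 to 9 when single libraries were left out; the cause was not tested. In the interaction, 0 to 2 members passed without single libraries and 4 in DESeq2, for which the share over all genes is not given here. The stage balance of HFD P0 libraries was -2.06 with a pseudocount of 0.1 and -0.92 with 5, and that of HFD P21 libraries 1.67 with 5. Replicate numbers are shared between groups, but not every same-numbered pair deviated together. The correlations were -0.04, -0.04 and 0.10 at P21, and 0.17, 0.27 and 0.49 for replicates 1, 2 and 5 at P0, each of these best with its own number, against -0.04 and -0.17 for replicates 3 and 4. The numbers were therefore not taken to pair the libraries. With the replicate block, in which HFD P21 replicate 4 has no partner, 0 members passed at P21 (Sirt2 at an adjusted p of 0.0540) and 1, Apod, in the interaction, and the age calls of Olig1 in chow (adjusted p 0.117) and Gal3st1 in HFD offspring (0.0607) were lost. Differences near 0, none of them called, changed sign. For P21 diet, Qdpr was at -0.062 with equal library sums and -0.0061 in edgeR, and from -0.064 to 0.12 without single libraries, and Olig2 from -0.41 to 0.11. For age in chow, Cspg4 was at 0.0078 with TMM, 0.0023 in DESeq2 and 0.80 in edgeR on the 6 libraries with sharp steps, where Nkx2-2 was at 0.43 and Pdgfra at 0.16; without single libraries the 3 genes ran from -0.38 to 0.28, -0.23 to 0.044 and -0.27 to 0.031. For age in HFD, Olig1 was at 0.17 with TMM and 0.015 in DESeq2, Cd9 at -0.013 and Apod at -0.12 with equal sums and Apod at -0.14 with the block; without single libraries they ran from -0.15 to 0.13, -0.12 to 0.30 and -0.14 to 0.24. DESeq2 and the 6-library fit, which holds 1 chow P21 library assumed to vary like the others, were chosen after seeing the data. Depth limits the sheath genes at birth, where 3 reads amount to 0.0826 to 0.138 units.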
